A study of Mus musculus with 25 samples.

Results

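Shox2, the gene of the short stature homeobox 2 protein, was 1 of the 37406 genes in the table, found by its symbol (gene ID 20429, chromosome 3, 66775649 to 66785693 in the mm9 build that the labels name). Its level was followed in 25 RNA-seq libraries of the wild type CD1 mouse palate at E14.5, all from tissue taken by laser capture microdissection. The anterior and the posterior palate were each sampled as medial, lateral, oral and nasal compartments, with 3 libraries of each compartment and 4 of the anterior nasal one. Medial with lateral and oral with nasal are 2 separate ways of dividing the shelves, so that, for example, lateral and oral compartments can hold the same kind of tissue. The study calls the replicates biological, but whether 1 embryo gave several compartments is not stated, and p-values measure only the spread between these libraries.

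Shox2 is a transcription factor with a paired-class homeodomain. In the mouse palate it is known as a gene of the anterior mesenchyme, where it is needed for closure of the anterior palate, and it is studied beside Msx1, Bmp4 and Shh, genes of the growth signals of the same region. Outside the face it is known for the proximal limb skeleton, where it acts upstream of cartilage maturation, and for the sinoatrial node of the heart, where it keeps working atrial genes down.

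The bases just before the gene are shown to place the readout, which is RNA of this gene and no measure of its promoter. The 250 bases before the RefSeq start of Shox2, on the minus strand of GRCm38.p6 (chr3:66981772-66982021), a build other than that of the table, have a GC content of 55.6%. In the line that follows, the capitals mark the only match to TATAAA, searched on both strands.
Shox2, 250 bases before the start: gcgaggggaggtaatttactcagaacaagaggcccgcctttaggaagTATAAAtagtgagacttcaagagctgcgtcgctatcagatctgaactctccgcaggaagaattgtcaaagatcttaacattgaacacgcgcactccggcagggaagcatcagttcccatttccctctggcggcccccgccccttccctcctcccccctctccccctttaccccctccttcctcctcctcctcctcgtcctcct
The match lies from -203 to -198 relative to the start, and 12.4% of the 32851 promoters of the same length held at least 1. The motif TAAT, a core that many homeodomains bind, occurred 1 time on either strand, and 54.9% of promoters held at least 1.

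Shox2 was an abundant transcript throughout the anterior palate. The 3 anterior lateral libraries had 148.8, 144.0 and 156.1 RPKM (reads scaled to transcript length and to the total of the library), and the 3 anterior oral libraries had 140.4, 143.0 and 126.6. The anterior nasal libraries had 150.9, 98.7, 119.7 and 115.2 RPKM, and the anterior medial libraries had 115.6, 106.3 and 113.4. In each of the 13 anterior libraries Shox2 ranked between 123 and 378 among all genes, from the 98.0th to the 99.4th percentile of the genes above 0.

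In the posterior palate Shox2 was lower in every library and far less even. The posterior oral libraries had 21.2, 40.9 and 59.6 RPKM, and the posterior nasal libraries had 11.97, 19.8 and 16.2. The posterior lateral libraries had 2.73, 39.4 and 5.83 RPKM, and the posterior medial libraries had 0.0572, 5.69 and 9.60. The lowest anterior library (98.7 RPKM, nasal) was thus above the highest posterior one (59.6 RPKM, oral), with no overlap between the regions, as for 0.267% of the 8608 genes that reached 10 RPKM in 6 or more libraries. In tissue samples such as these, fewer cells with Shox2 RNA and less RNA per cell cannot be told apart.

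**Figure D1:**
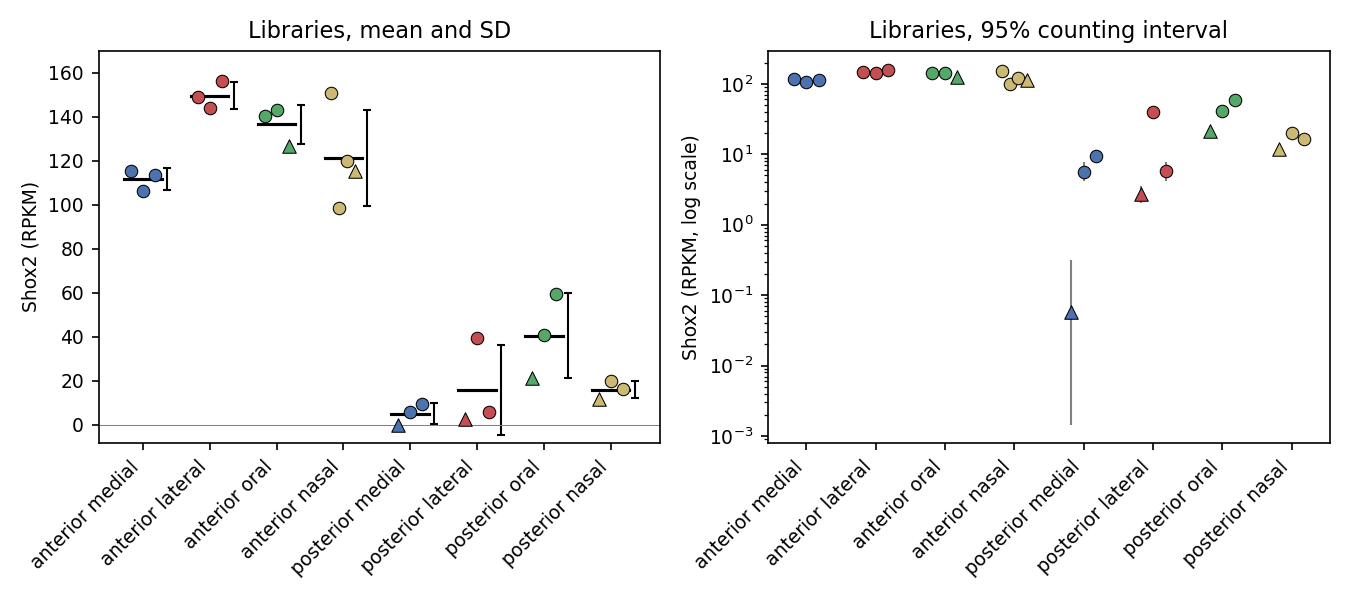
Shox2 level (RPKM) in each library by compartment, on a linear axis with the mean (bar) and SD on the left, and on a log axis with the 95% counting interval (gray) on the right. Triangles are libraries whose alignment names hold ERK2_WT or Tgfbr2_WT. The anterior libraries sit between 98.7 and 156.1 RPKM and the posterior ones between 0.0572 and 59.6.

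By the mean over replicates the order of the compartments was anterior lateral (149.6 ± 6.07 RPKM, SD, n = 3), anterior oral (137 ± 8.81, n = 3), anterior nasal (121 ± 21.8, n = 4), anterior medial (111.8 ± 4.85, n = 3), posterior oral (40.5 ± 19.2, n = 3), posterior nasal (15.99 ± 3.90, n = 3), posterior lateral (15.99 ± 20.3, n = 3) and posterior medial (5.12 ± 4.80, n = 3). Between neighbours in this order, the libraries of anterior lateral and anterior oral lay just apart (144.0 against 143.0 RPKM at the nearest), those of anterior oral, nasal and medial overlapped in turn, and so did those of posterior nasal, lateral and medial. Anterior medial and posterior oral did not overlap, nor did posterior oral and posterior nasal.

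The reads behind these levels were worked out from the values, as bases covered by reads of 50 bases, with the lowest library taken to hold 1 read. Shox2 rested on between 42.9 and 2664 read equivalents in 24 libraries and on 1 in posterior medial replicate 1, whose exact 95% Poisson interval is 0.00145 to 0.319 RPKM. Intervals cover counting error only. The 3 posterior lateral libraries rested on 51.9, 301.4 and 43.6 read equivalents, and their intervals were 2.04 to 3.58, 35.1 to 44.1 and 4.23 to 7.84 RPKM, so that replicate 2 lay apart from both others by more than counting error.

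The spread between replicates was narrow in the anterior compartments and wide in most posterior ones. On the log2(RPKM + 0.1) scale the SD of Shox2 was 0.06 in anterior lateral, 0.06 in anterior medial, 0.09 in anterior oral and 0.25 in anterior nasal, and between 68.1% and 96.1% of the other genes with a mean of at least 5 RPKM in the compartment had a larger SD. In the posterior palate the SD was 1.96 in lateral, 3.24 in medial, 0.75 in oral and 0.36 in nasal. A larger SD was found for 0.596% of such genes in posterior lateral, 2.86% in posterior medial, 6.53% in posterior oral and 29.0% in posterior nasal. The other genes were not matched to Shox2 by level, which was far higher in the anterior palate. The posterior medial SD includes replicate 1, at 0.0572 RPKM, below the 0.1 added before the log.

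The alignment names of the libraries differ. Of the 25, 6 have names that hold ERK2_WT (2) or Tgfbr2_WT (4), while the labels give CD1 wild type for all 25, and what the names mean is not stated. These 6 were all the libraries of the sequencing runs run0169, run0171 and run0175, so name and run cannot be told apart. Among them are 1 library of each posterior compartment, and in 4 of 4 posterior compartments it had the lowest Shox2 level of the 3, a pattern noticed after the values were seen. The same 4 libraries were lowest in all 4 compartments for 7.89% of the 8608 genes, and highest in all 4 for 5.70%. The part of the name or the run in the Shox2 spread was not tested.

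The size of the fall from anterior to posterior is a description here, without a test, since Shox2 was picked out as an anterior gene. Posterior means were 4.58% of the anterior mean in the medial compartments, 10.7% in lateral, 13.2% in nasal and 29.7% in oral. On the log2(RPKM + 0.1) scale the posterior minus anterior difference of Shox2 was -5.76 (SE 1.53) in medial, -4.10 (SE 0.88) in lateral, -2.93 (SE 0.24) in nasal and -1.87 (SE 0.40) in oral compartments. Over all 25 libraries the difference was -3.66 (SE 0.60), the 9th by size among 8608 genes, of which 3.32% passed an adjusted p of 0.05 (limma, Benjamini-Hochberg).

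The medial and lateral values rest most on single libraries. Without posterior medial replicate 1 the medial difference was -3.90, and without posterior lateral replicate 2 the lateral difference was -5.19. With all 6 libraries named ERK2_WT or Tgfbr2_WT left out, the difference over all compartments was -2.85. Within the 3 sequencing runs that held both regions, Shox2 was 115 to 127 RPKM in anterior and 11.97 to 21.2 in posterior libraries of 1 run, 106 to 116 against 5.69 to 59.6 in the next, and 156.1 against 5.83 to 39.4 in the third. No run showed an overlap, and the other 5 runs held libraries of 1 region only.

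Within the anterior palate the lateral libraries had higher Shox2 values than the medial ones, a difference that did not pass the test over all genes. The 3 lateral libraries (144.0 to 156.1 RPKM) lay above the 3 medial ones (106.3 to 115.6), as the libraries of these compartments also lay apart, in either direction, for 21.3% of the genes tested. The log2 difference was 0.42 (SE 0.11, 95% interval 0.17 to 0.67), a fold of 1.34, with an unadjusted p of 0.00497 and an adjusted p of 0.102 by limma. It did not pass, while 2.51% of 10427 genes did. With a mean-variance trend in the fit the adjusted p was 0.0312. The lateral and medial libraries shared no sequencing run, and with the run in a fit of all 25 libraries the difference was 0.91, with an adjusted p of 1.00.

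In the posterior palate lateral and medial did not separate. The lateral libraries (2.73, 39.4 and 5.83 RPKM) overlapped the medial ones (0.0572, 5.69 and 9.60), and the log2 difference was 2.08 (SE 1.76, 95% interval -2.17 to 6.32, adjusted p = 0.957 by limma). Of 10324 genes 0% passed, and 159 had an unadjusted p under 0.05. Without posterior medial replicate 1 the difference was 0.22.

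Oral and nasal tissue had overlapping Shox2 levels in the anterior palate and separate ones in the posterior palate, and neither difference passed. The anterior oral libraries (126.6 to 143.0 RPKM) lay inside the range of the anterior nasal libraries (98.7 to 150.9), with a log2 difference of 0.19 (SE 0.23, 95% interval -0.35 to 0.72, adjusted p = 1.00 by limma). Here 0% of 10684 genes passed, and 318 had an unadjusted p under 0.05. In the posterior palate all 3 oral libraries (21.2 to 59.6 RPKM) were above all 3 nasal ones (11.97 to 19.8), a separation shared, in either direction, by 11.8% of the genes tested. The log2 difference was 1.24 (SE 0.38, 95% interval 0.36 to 2.12), a fold of 2.37, with an unadjusted p of 0.0113 and an adjusted p of 0.280 by limma, so that Shox2 was not among the 1.25% of 10586 genes that passed.

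The oral to nasal difference of the posterior palate kept its direction within sequencing runs. In 1 run oral replicate 1 had 1.77 times the level of nasal replicate 1, and in another oral replicates 2 and 3 had 2.07 and 3.02 times the level of nasal replicate 2. In the anterior palate the ratios within runs lay between 0.930 and 1.42. Posterior nasal tissue also held the most RNA of osteoblast genes, with a summed level of the 6 markers of 281 to 453 RPKM against 44.7 to 55.3 in posterior oral, and their part in the result was not tested.

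Whether these differences changed between the anterior and the posterior palate was asked with an interaction term. For oral against nasal it was 1.06 on the log2 scale (SE 0.46, 95% interval 0.05 to 2.06, unadjusted p = 0.0410, adjusted p = 1.00 by limma), where 0.035% of 11442 genes passed. For lateral against medial it was 1.66 (SE 1.95, 95% interval -2.69 to 5.998, adjusted p = 0.964 by limma), where 0.00902% of 11089 genes passed. Neither passed, and the second turned to -0.20 without posterior medial replicate 1.

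**Figure D2:**
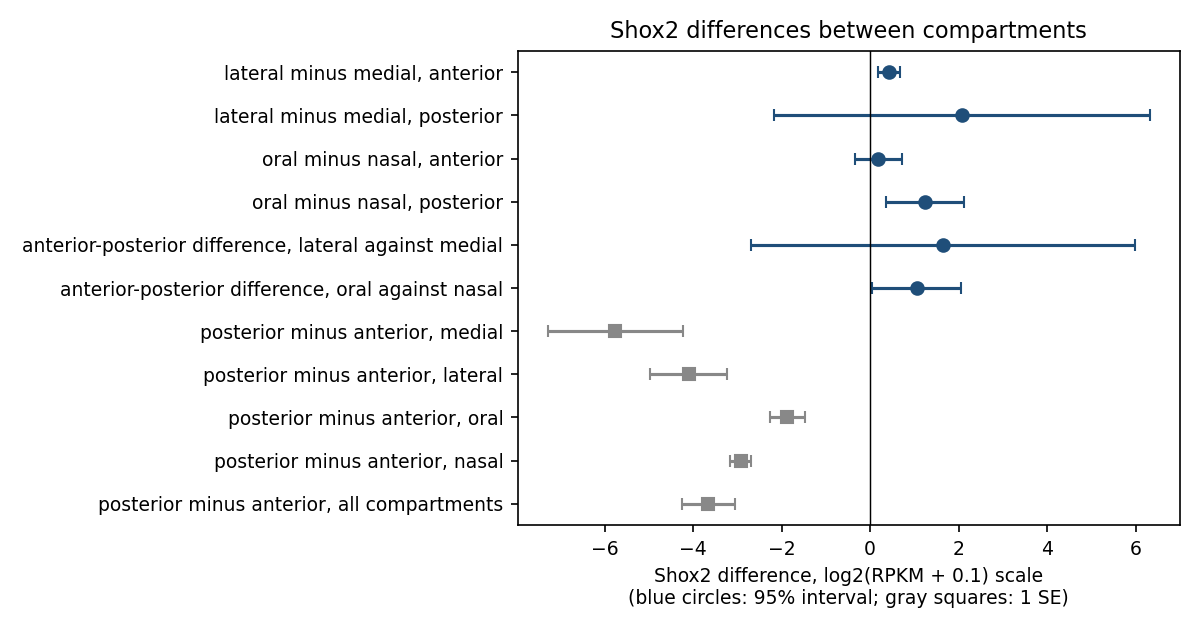
Shox2 differences between compartments on the log2(RPKM + 0.1) scale (x axis). Blue circles are the tested differences with their 95% interval, from 0.19 for anterior oral minus nasal to 2.08 for posterior lateral minus medial, and gray squares are the posterior minus anterior differences with 1 SE, from -5.76 in medial to -1.87 in oral.

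Markers of the cell types that the captured tissue could hold were present in both regions, with ranges that overlapped over all compartments but not always within one. The summed level of 6 palate mesenchyme genes was 606 to 896 RPKM in anterior and 564 to 1159 in posterior libraries. Its members did not move alike, with means of 148.1 RPKM anterior and 97.4 posterior for Prrx1, and 150.3 and 211.0 for Col1a1. The means of Twist1 (74.5 anterior and 82.4 posterior), Pdgfra (48.5 and 51.1) and Vim (233 and 261) were also higher in posterior libraries, by less. Osr2 had nearly equal means (59.1 and 59.7), and its median was lower in posterior libraries (53.1 and 42.9). The 8 epithelial genes summed to 39.4 to 139.5 and 20.2 to 123.3 RPKM, 4 endothelial genes to 56.0 to 162.0 and 33.8 to 150.8, 4 macrophage genes to 18.6 to 38.2 and 18.1 to 47.1, 4 red cell genes to 117.0 to 418 and 147 to 672, 4 nerve and Schwann cell genes to 10.6 to 51.0 and 6.98 to 43.3, and 7 skeletal muscle genes to 2.36 to 45.3 and 0.367 to 83.1. The 6 osteoblast genes summed to 29.0 to 184 RPKM in anterior and 34.9 to 453 in posterior libraries, and 4 cartilage genes to 7.67 to 35.1 and 22.3 to 81.5. Myf5 and Myod1, the muscle determination factors, were at 0 in every medial library of both regions, and Bglap, the osteocalcin gene, was at 0 in posterior lateral. Within compartments the cartilage sums did not overlap in lateral (9.03 to 11.4 RPKM anterior, 28.8 to 36.6 posterior), oral (7.67 to 14.4 and 26.8 to 51.7) and nasal tissue (21.9 to 30.6 and 46.1 to 81.5), nor did the osteoblast sums in nasal (46.4 to 74.8 and 281 to 453). The same held, with lower posterior sums, for epithelium (39.4 to 85.9 and 20.2 to 36.9) and nerve (16.6 to 19.2 and 8.49 to 13.5) in lateral, and with higher ones for macrophages in oral tissue (23.7 to 26.2 and 35.6 to 39.8). The part of these cell types in the Shox2 difference was not tested.

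The genes that work around Shox2 in the palate did not all fall with it. Of 16 genes of BMP, SHH and FGF signalling, 9 were abundant enough to test in posterior minus anterior, of which 2 fell, 0 rose and 7 did not pass, against 1.66% of 8608 genes that fell and 1.66% that rose. Msx1, a homeobox target of BMP signalling, fell by 4.45 on the log2 scale (SE 0.67, adjusted p = 8.90e-05 by limma), with 0 to 18.7 RPKM (median 10.01) in anterior and 0 to 1.02 (median 0.171) in posterior libraries. It was listed at 0 in 6 posterior libraries and in 1 anterior one, its difference ran from -5.95 to -2.61 over the alternatives, and its call was lost with a mean-variance trend and with the run in the fit. The counting is not stated to use strand, so reads of Msx1 and of its antisense transcript cannot be told apart. Msx1 is also in the list of anterior palate genes below, which was partly chosen by the study on these libraries. Bmp2, a BMP ligand, fell by 0.73 (SE 0.15, adjusted p = 0.00390 by limma), from a median of 27.3 to 14.0 RPKM, a call that was lost without the libraries named ERK2_WT or Tgfbr2_WT.

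Bmp4, another BMP ligand, had a log2 difference of 0.57 (SE 0.37, adjusted p = 0.505 by limma), with 6.45 to 51.1 RPKM in anterior and 8.03 to 137.4 in posterior libraries, so its ranges overlapped. Its highest values were in the libraries named ERK2_WT, posterior lateral replicate 1 (137.4 RPKM) and posterior medial replicate 1 (131.9). All other posterior libraries lay between 8.03 and 44.6 RPKM, inside the anterior range. Shh, the hedgehog ligand of the palate epithelium, was below the minimum, with 0 to 15.4 RPKM (median 0.115) in anterior and 0 to 16.75 (median 0.127) in posterior libraries. The median log2 difference of the 9 tested genes was -0.16, against 0.03 over all genes tested.

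Other genes of the anterior palate fell together with Shox2, but not by the same share. Of 8 such genes all were tested, and 7 fell, 0 rose and 1 did not pass (1.66% of all genes tested in each direction), with a median log2 difference of -2.49. This list was partly chosen by the study on these libraries and is no independent evidence of direction. The largest falls were those of Hpse2, which encodes heparanase 2 (-5.96, SE 0.25), and Alx1, an aristaless-like homeobox gene (-5.77, SE 0.41). Both were listed at 0 in posterior libraries (2 for Hpse2, 1 for Alx1), and their differences ran from -6.92 to -3.88 and from -6.43 to -4.87 over the alternatives. Pax3, a paired box gene of neural crest (-2.57, SE 0.30), Eya1, a transcriptional coactivator and phosphatase (-2.41, SE 0.26), and Wnt5a, a Wnt ligand (-1.99, SE 0.23), also fell. Their adjusted p-values were 2.46e-15, 4.21e-10, 1.94e-06, 6.39e-07 and 1.59e-06 by limma. Inhba, the activin A subunit, fell by 1.25 (SE 0.26, adjusted p = 0.00407 by limma). Tbx15, a T-box gene, had -1.51 (SE 0.48, adjusted p = 0.0930), and it passed in a fit of all libraries by compartment and without posterior lateral replicate 1, where it stood at 345% of its anterior median.

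As a share of the anterior median, the posterior levels of Shox2 lay between those of the genes that fell most and those that fell least. The posterior oral libraries had 16.7%, 32.3% and 47.1% of the anterior median of Shox2, between 0.860% and 2.40% of that of Hpse2, between 0.998% and 4.58% of that of Alx1, and between 0 and 10.2% of that of Msx1. Pax3 (5.09% to 7.03%) was also lower there, and Eya1 (12.57% to 18.5%), Tbx15 (12.2% to 26.7%), Wnt5a (22.8% to 36.9%) and Inhba (12.8% to 54.9%) overlapped Shox2. In posterior nasal tissue Shox2 stood at 9.45% to 15.6%, above Alx1 (2.17% to 7.74%), Hpse2 (1.18% to 2.30%) and Msx1 (0 to 6.43%). It stood below Eya1 (21.5% to 45.5%), Pax3 (22.6% to 30.3%), Wnt5a (19.7% to 23.2%), Tbx15 (25.6% to 47.9%) and Inhba (43.6% to 109.0%) there. Posterior lateral replicate 2, which was high for Shox2 (31.1%), was at 1.87% for Alx1 and 1.24% for Hpse2, both near the other posterior lateral libraries. This replicate was the highest of the 3 posterior lateral libraries for 3 of these 8 anterior genes. Of the 11912 other genes that reached 5 RPKM in 3 or more libraries, 35.4% were highest there. Posterior oral replicate 3, the highest posterior library for Shox2, was the highest of its 3 for 6 of the 8 anterior genes (29.9% of the 11912). The libraries lowest for Shox2 in posterior medial, lateral, oral and nasal tissue were lowest for 2, 3, 3 and 4 of the 8. For all 11912 genes these shares were 32.7%, 43.9%, 35.3% and 39.7%. The differences between genes in percent of the anterior median, and these orders of libraries, are descriptions, with no test.

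**Figure D3:**
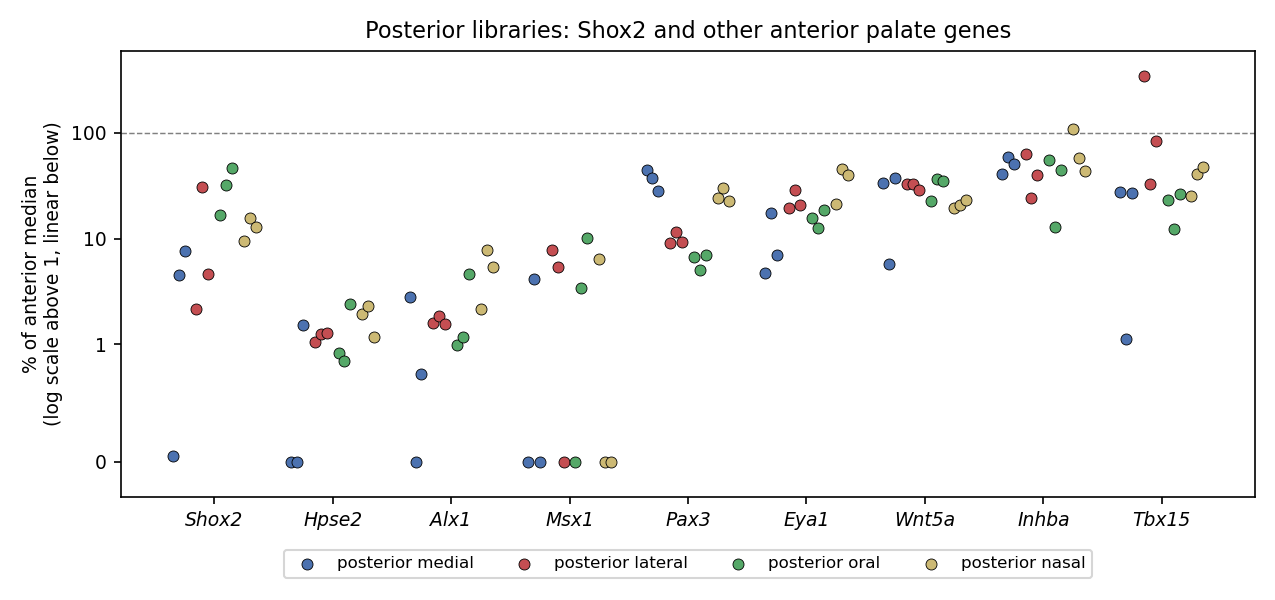
Level of Shox2 and of 8 other anterior palate genes in each posterior library as a percent of the gene's median over the 13 anterior libraries (y axis, log scale above 1, linear below), coloured by compartment. The posterior oral libraries of Shox2 lie between 16.7% and 47.1%, and those of Hpse2 between 0.860% and 2.40%.

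The reverse pattern was shown by genes known for the posterior palate, a list also partly chosen by the study on these libraries. Of 6 genes 5 were tested, of which 4 rose and 1 did not pass (1.66% of all genes tested in each direction), with a median log2 difference of 3.57. Sim2, a bHLH-PAS factor, rose by 4.83 (SE 0.40), Barx1, a homeobox gene, by 4.72 (SE 0.48), Meox2, also a homeobox gene, by 3.57 (SE 0.29) and Tbx22, a T-box gene linked to X-linked cleft palate, by 2.94 (SE 0.31). Their adjusted p-values lay between 4.41e-09 and 4.24e-07 by limma. Mn1, a coactivator upstream of Tbx22, had 0.11 (SE 0.14, adjusted p = 0.768).

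Few of the other paired-class homeobox genes were abundant enough to test. Of the 32 others in the list 6 were tested, and 3 fell, 0 rose and 3 did not pass (1.66% of all genes tested in each direction), with a median log2 difference of -0.74. Prrx1, which is broadly expressed in limb and face mesenchyme, fell by 0.69 (SE 0.18, adjusted p = 0.0236 by limma), with 103.4 to 184 RPKM in anterior and 36.1 to 152 in posterior libraries, and did not pass with the run in the fit. Alx1 and Pax3 were the other 2. Both are also in the list of anterior palate genes, which was partly chosen on these libraries, so their falls are no separate evidence about this class. Prrx2 (0.08, SE 0.21), Alx4 (-0.80, SE 0.36) and Gsc, the goosecoid gene (1.92, SE 0.65), did not pass, with adjusted p-values of 0.907, 0.288 and 0.118, though Gsc passed in a fit of all libraries by compartment.

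The genes known around Shox2 in the heart were mostly near 0 in the palate. Of 11 sinoatrial node genes 4 were tested, of which 1 rose, 1 fell and 2 did not pass (1.66% of all genes tested in each direction), with a median log2 difference of 0.39. Nkx2-5, the cardiac homeobox gene that Shox2 restrains in the node, was at 0 in 8 anterior and 10 posterior libraries and reached 0.615 RPKM. Isl1 reached 1.62 RPKM, and Tbx18 lay between 0.387 and 8.66. Tbx3, a T-box repressor of the conduction system, was at 32.3 ± 7.86 RPKM (SD, n = 13) in anterior and 37.0 ± 8.08 (SD, n = 12) in posterior libraries, a log2 difference of 0.22 (SE 0.15, adjusted p = 0.542 by limma).

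The genes called in that list were connexins, which form gap junction channels. Gja5 fell by 2.47 (SE 0.66, adjusted p = 0.0321 by limma) and Gja1 rose by 0.72 (SE 0.20, adjusted p = 0.0477). The medial libraries of Gja5 did not share the fall, with 0.966, 1.93 and 0.779 RPKM in anterior and 6.44, 0.134 and 2.21 in posterior medial tissue. Leaving out any 1 of 16 of the 25 libraries ended the Gja1 call, and any 1 of 9 ended the Gja5 call. With no minimum level, or without the libraries named ERK2_WT or Tgfbr2_WT, neither passed.

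Genes of the limb stylopod and of chondrogenesis gave 2 calls over all compartments, both upward. Of 12 genes 6 were tested, of which 2 rose, 0 fell and 4 did not pass (1.66% of all genes tested in each direction), with a median log2 difference of 0.63. Col2a1, the collagen of cartilage, rose by 1.20 (SE 0.25, adjusted p = 0.00374 by limma) from a median of 13.3 to 29.0 RPKM. Pth1r, the parathyroid hormone receptor, rose by 0.79 (SE 0.18, adjusted p = 0.0111), and did not pass with the run in the fit. Runx2, the osteoblast factor placed downstream of Shox2 in limb cartilage, had 0.82 (SE 0.34, adjusted p = 0.231, passing in fits of all libraries by compartment), with 11.6 to 63.1 RPKM in anterior and 13.1 to 108.6 in posterior libraries. Pthlh, the ligand of that receptor, was below the minimum over all compartments, with 2.47 to 15.3 RPKM (median 7.32) in anterior and 0 to 5.07 (median 1.24) in posterior libraries. In the nasal compartments, where it was tested, it fell by 2.58 (SE 0.43, adjusted p = 0.0207 by limma), as 1.11% of 10629 genes fell. The 4 cartilage markers, which include Col2a1, summed to 7.67 to 35.1 RPKM in anterior and 22.3 to 81.5 in posterior libraries. That sum is no measure separate from the Col2a1 rise, and its part in these changes was not tested.

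Of the genes next to Shox2 on chromosome 3, only Ptx3, 745921 bases away, passed in posterior minus anterior. Of 18 genes within 1 Mb, 8 were listed at 0 in every library, and 5 were tested, of which 1 fell, 0 rose and 4 did not pass (1.66% of all genes tested in each direction). Rsrc1, a gene of a splicing-related protein that lies 3901 bases from Shox2 and is its nearest neighbour, had 5.93 to 12.61 RPKM in anterior and 6.48 to 11.3 in posterior libraries (log2 difference -0.22, SE 0.11, adjusted p = 0.357 by limma). Gfm1, Lxn and Mfsd1 had log2 differences of 0.06, -0.13 and 0.05 and did not pass. Mlf1 and Veph1 were below the minimum and not tested, with lower posterior medians and overlapping ranges. Mlf1 had 3.41 to 17.1 RPKM (median 6.20) in anterior and 0.733 to 6.97 (median 3.10) in posterior libraries. Veph1 had 3.30 to 26.7 (median 5.90) and 2.57 to 7.18 (median 3.70). Schip1, Rarres1 and Iqcj were also below the minimum, with highest values of 6.08, 2.83 and 1.16 RPKM. Ptx3, the pentraxin 3 gene, fell by 1.83 (SE 0.37, adjusted p = 0.00304 by limma), with 16.3 to 70.1 RPKM in anterior and 0.960 to 21.5 in posterior libraries, and did not pass with the run in the fit.

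**Figure D4:**
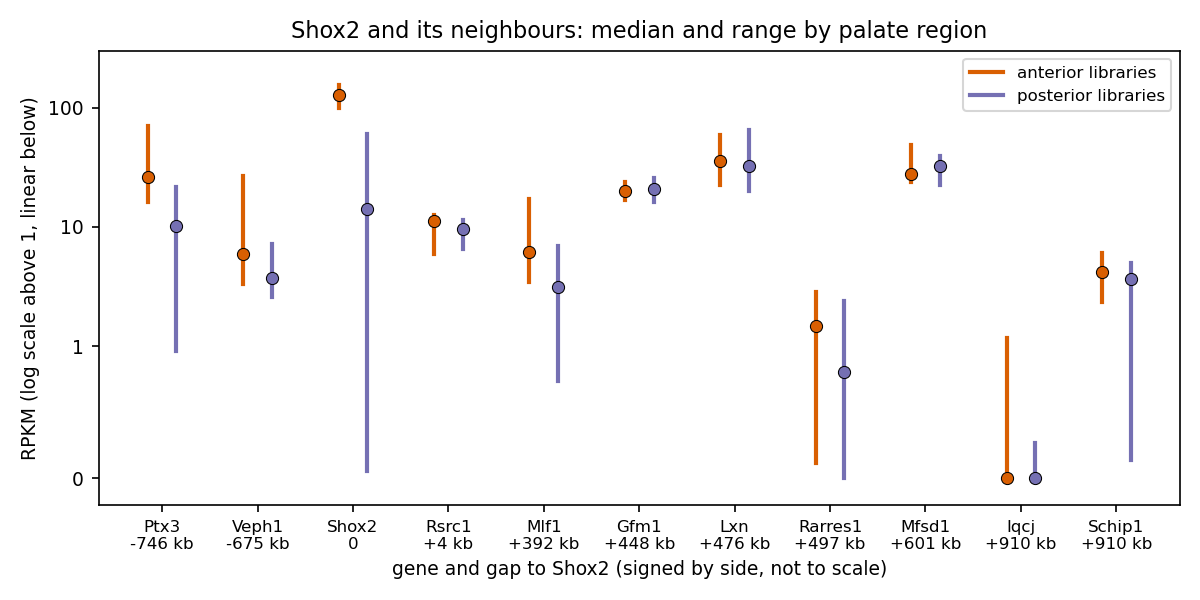
Level (RPKM, log scale above 1, linear below) of Shox2 and of the 10 genes within 1 Mb that were above 0 in any library, in order along chromosome 3 with the gap to Shox2 in kb. Points are medians and lines the range over 13 anterior (orange) and 12 posterior (violet) libraries. Shox2 has no overlap between the regions, and the nearest gene, Rsrc1, spans 5.93 to 12.61 and 6.48 to 11.3 RPKM.

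The genes whose compartment pattern was most like that of Shox2 were found by the root mean square difference of the 8 compartment means, on the log2(RPKM + 0.1) scale and centred for each gene, over 11912 other genes that reached 5 RPKM in 3 or more libraries. The 8 nearest were Gm5084 (0.547), Kcnj8 (0.574), 5430421F17Rik (0.742), Foxd2 (0.775), Shisa3 (0.817), Darc (0.824), Zmat4 (0.853) and Col14a1 (0.866), against a median of 2.13 over all these genes. They share the fall from anterior to posterior by the rule itself. Kcnj8 encodes a pore subunit of an ATP-sensitive potassium channel, Foxd2 a forkhead factor, Darc the Duffy chemokine receptor and Col14a1 a fibril-associated collagen.

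All 8 lay on other chromosomes than Shox2, and all were less abundant. Their anterior medians ran from 3.66 RPKM for Shisa3 to 38.1 for Col14a1, against 126.6 for Shox2. With a pseudocount of 1, 5 of the 8 were again among the 8 nearest. Posterior lateral replicate 2, high for Shox2, was also the highest of its 3 libraries for 4 of the 8 (35.4% of the 11912 genes). Posterior oral replicate 3, also high for Shox2, was highest for 3 (29.9%). Posterior medial replicate 1, the lowest for Shox2, was lowest for 0 of the 8 (32.7%). Foxd2 and Shisa3 were at 0 in all 3 posterior medial libraries. The libraries lowest for Shox2 in posterior lateral, oral and nasal tissue were lowest for 3, 4 and 1 of the 8 (43.9%, 35.3% and 39.7%).

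**Figure D5:**
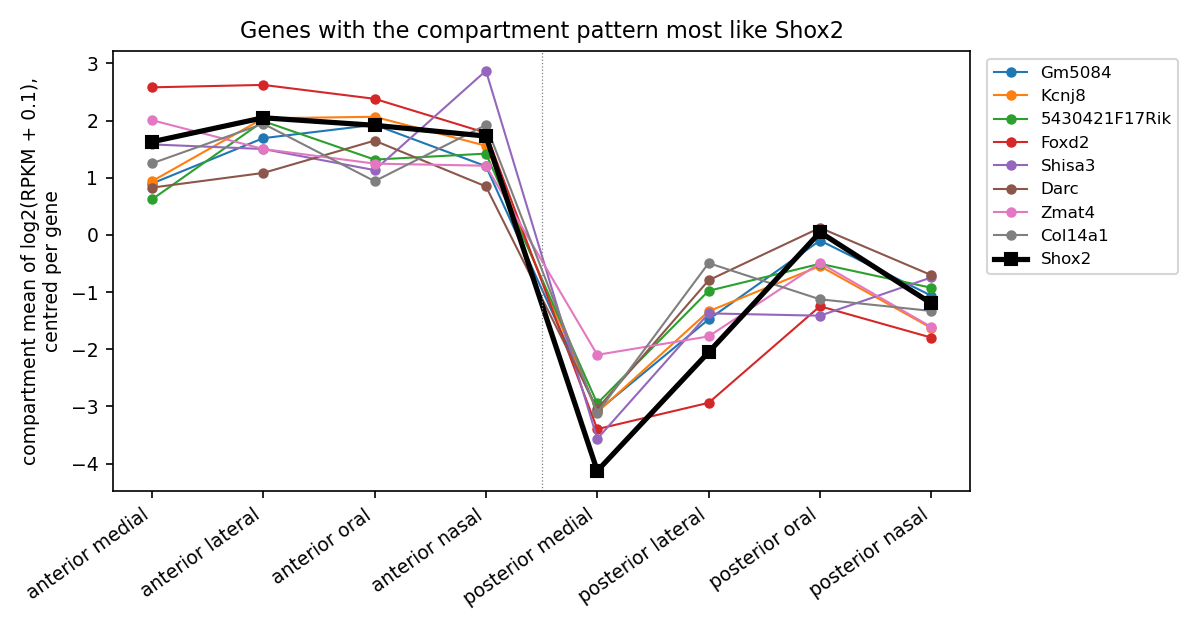
Compartment means of log2(RPKM + 0.1), centred for each gene (y axis), for Shox2 (black squares) and the 8 genes with the most alike pattern. All 9 genes are highest in an anterior compartment, and Shox2 reaches the lowest centred mean, in posterior medial (-4.13).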

How the data were processed

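RNA from laser captured tissue was amplified (NuGEN Ovation V2), tagmented with Nextera and sequenced in single-end reads of 50 bases. The submitters' processing notes name TopHat and mm9. The authors deposited RPKM values for 37406 genes in 25 libraries, for which they used GeneSpring 12.6.1 and took out duplicate and multiply aligned reads. No read counts were used. Steps between the RPKM values gave totals of 1.64 to 6.56 M reads per library, well below the average number of reads per sample that the paper states. The library with the lowest Shox2 value was taken to hold 1 read. On that scale 11 of 11 Shox2 values under 500 reads came out as whole bases covered, within 0.05 base, the lowest of them by this choice. Groups came from the sample titles, and runs and library names from the column names of a supplementary table.

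Values were compared as log2(RPKM + 0.1) with limma 3.58.1 in R 4.3.3, with two-sided p-values adjusted by Benjamini-Hochberg over all genes tested and a threshold of 0.05. Pairs of compartments and interactions used genes that reached 5 RPKM in 3 or more of their libraries, and posterior minus anterior used genes that reached 10 RPKM in 6 or more. A log2(RPKM + 0.1) difference understates the change of low genes. The lists and Shox2 were chosen with earlier results of these data known. The genes named were the members of each list that passed in posterior minus anterior (at most 6 a list), 16 genes set by name, the 8 most alike genes, and otherwise genes chosen after their values were seen (Mn1, Gsc, Gfm1, Lxn, Mfsd1, Tbx15, Rsrc1, Pthlh, Mlf1, Veph1, Schip1, Rarres1, Iqcj). A gene among those set by name is not reported here. The symbol Drgx was read as Prrxl1. Of the other paired-class, heart and limb genes, those below the minimum are given by their levels. The alternatives were pseudocounts of 1 and 0.01, no minimum, median centring, quantile normalization, the replicate number as a block, a trend of variance with level, all 25 libraries in one fit without and with the run, each library left out, and, added after the data were seen, the libraries named ERK2_WT or Tgfbr2_WT left out. Replicate numbers were checked for pairing by correlating deviations from group means. The fit was tested on simulated data. Promoter sequences are from RefSeq (GRCm38.p6). Figures were drawn with matplotlib 3.10.9 in Python 3.11.15, after preparation with pandas 2.3.3 and scipy 1.17.1.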

Additional observations from a re-analysis of the deposited data

Results flagged for a closer look

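In the 4 anterior nasal libraries, 38 genes named here were examined for a library whose gap to its neighbour exceeded Dixon's 95% critical share of the range, and chance alone flags about 1 in 20 groups. Shox2 was not flagged, with a gap of 0.597 of the range above and 0.316 below. The following 4 genes were. Alx4 had a highest library of 54.9 RPKM over 23.3, 26.5 and 27.97, and Tbx15 one of 21.4 over 11.03, 11.5 and 12.5. Mn1 had a highest library of 48.3 RPKM over 29.1, 30.2 and 32.1, and Meox2 a lowest library of 5.55 RPKM under the others, at 11.7 to 12.2.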

How the results depend on the processing

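Under the alternatives tried, Shox2 stayed lower in the posterior palate, and posterior minus anterior ranged over the libraries left out from -6.87 to -3.90 in medial, -5.19 to -3.29 in lateral, -2.21 to -1.46 in oral, -3.09 to -2.73 in nasal and -3.89 to -3.11 in all compartments. With the run in a fit of all 25 libraries it was -2.46 in oral and -3.37 in nasal, and the cause was not tested. Anterior lateral minus medial passed with a mean-variance trend (0.42, adjusted p = 0.0312). With the run it was 0.91, and anterior oral minus nasal was 0.37 with quantile normalization. Posterior lateral minus medial was 1.26 with a pseudocount of 1, 1.18 with quantile normalization and 1.03 without the libraries named ERK2_WT or Tgfbr2_WT, and its interaction was 0.84, 1.05 and 0.61 under these and 0.55 with the run. Leaving out single libraries, anterior lateral minus medial ranged from 0.39 to 0.45, posterior lateral minus medial from 0.22 to 3.19, anterior oral minus nasal from 0.10 to 0.30, posterior oral minus nasal from 0.91 to 1.65, and the interactions from -0.20 (without posterior medial replicate 1, a reversal) to 2.77 for lateral against medial and from 0.72 to 1.46 for oral against nasal. The number of BMP, SHH and FGF genes called was 1 with a mean-variance trend, with the run, and without the libraries named ERK2_WT or Tgfbr2_WT. The number of sinoatrial node genes called was 0 with no minimum and without those libraries, 1 with median centring, with quantile normalization and with the replicate block, and 0 to 2 with single libraries left out. The number of neighbours called was 0 with the run. The replicate numbers did not pair the samples (correlations of same-numbered deviations between -0.155 and 0.418, in no comparison all above 0.1), and the block changed no other call. Counting error is widest in posterior medial replicate 1, where Shox2 was taken to rest on 1 read in a library of 5.45 M.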
